A study of Mus musculus with 15 samples.

Results

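The Serpin genes, which encode the serpin family of protease inhibitors, were followed across mouse prostate epithelial cells grown as organoids. Members were all gene symbols made of "Serpin", a clade letter from a to i, a number and an optional letter. The rule matched 62 of the 21886 genes in the table of deletion genotypes and 28 of the 14301 genes in the table of the K735R comparison, and the values, counts and sums given are over 61 and 27 of them. In the first table, 4 groups came from 3-month-old C57BL/6 mice. They were double null (Setd2 and Ezh2 both deleted in the prostate, Setd2PC-/-;Ezh2PC-/-), Ezh2 null (Ezh2PC-/-), Setd2 null (Setd2PC-/-) and a control without either deletion. In the second, 2 groups came from 2-month-old mice with the Ezh2 form K735R, in which an arginine takes the place of a lysine, or with wild-type Ezh2. The tables come from mice of different ages and hold different units, so levels were not compared between them. Each group had 2 libraries, and in the first 4 groups each library was a pool of equal masses of RNA from 3 biological replicates. Nothing in the labels says whether the libraries of a group came from separate animals, so p-values measure the spread between these libraries. The labels do not name the promoter of the Cre recombinase, and give no pool size for the K735R comparison.

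Most serpins trap a protease by offering a flexible loop as bait: once the loop is cut, the serpin changes shape and the protease stays bound to it. Secreted members control plasminogen activation, coagulation and complement, while most clade B members act inside cells against proteases that leak from granules or lysosomes. A few members, among them maspin and the collagen chaperone HSP47, have the serpin fold but do not act as protease inhibitors. Setd2 methylates lysine 36 of histone H3, and Ezh2 is the catalytic subunit of Polycomb repressive complex 2, which methylates lysine 27.

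Reads on listed genes ranged from 29686132 to 54203792 over the libraries of the deletion genotypes, and total counts from 28831228 to 37482322 over those of the K735R comparison. Transcripts of Ezh2 were at 11.6 to 16.6 RPKM (reads per length of gene, scaled to the library total) in the 4 libraries with Ezh2 deleted and at 19.4 to 24.2 RPKM in the other 4. Setd2 was at 7.54 to 10.3 RPKM with Setd2 deleted and at 11.6 to 17.0 RPKM without that deletion. The tables give 1 value per gene, so these levels do not test the loss of the deleted exons. Prostate epithelial markers were present in every library. The 8 genes of that list summed to 4535 to 5149 RPKM in double null and 3525 to 4104 in Ezh2 null. They summed to 4439 to 5190 RPKM in Setd2 null and 4224 to 4372 in control. Within the list, markers moved in opposite directions. Epcam averaged 328, 299, 1199 and 1048 RPKM in double null, Ezh2 null, Setd2 null and control, and Krt5 1948, 1233, 552 and 547 RPKM.

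The serpins with a mean of at least 1 RPKM came mainly from clades A and B. Of the 61 members, 19 were listed at 0 in all 8 libraries of the first table, 25 were above 0 in at least 1 library but had a mean under 1 RPKM, and 17 had a mean of at least 1 RPKM and were tested. Clade A, the secreted antitrypsin and antichymotrypsin group, had 24 members with 8 at 0 throughout and 5 tested. Clade B, the intracellular group, had 27 members with 10 at 0 throughout and 8 tested. The tested members of the other clades were Serpine2, Serpinf1, Serping1 and Serpinh1, while antithrombin (Serpinc1), heparin cofactor 2 (Serpind1) and clade I, which holds neuroserpin, stayed below the limit. At the limit, Serpina3i had the lowest tested mean, 1.02 RPKM, and Serpinb10 the highest mean not tested, 0.278 RPKM. Of the 17 tested members, 8 had a mean under 1 RPKM in at least 1 group, so they passed through their higher groups.

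Different members led the serpin RNA in different genotypes. Summed over the 61 members described, the libraries held 306 and 273 RPKM in double null, 387 and 349 in Ezh2 null, 408 and 346 in Setd2 null, and 385 and 361 in control. The double null libraries had the lowest totals, and the totals of the other groups overlapped. Serpine2, or protease nexin-1, a secreted inhibitor of thrombin and urokinase, made up 26.9% of the total in double null, 55.4% in Ezh2 null, 7.14% in Setd2 null and 15.1% in control. Serpinh1, a collagen chaperone, made up 8.74%, 7.13%, 24.4% and 28.4% in the same order. Of these 61, the most abundant by group mean was Serpine2 in double null and Ezh2 null, Serpinb6a in Setd2 null and Serpinh1 in control, although Serpinb6a was above Serpinh1 in control 1 (105 and 104 RPKM).

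**Figure D1:**
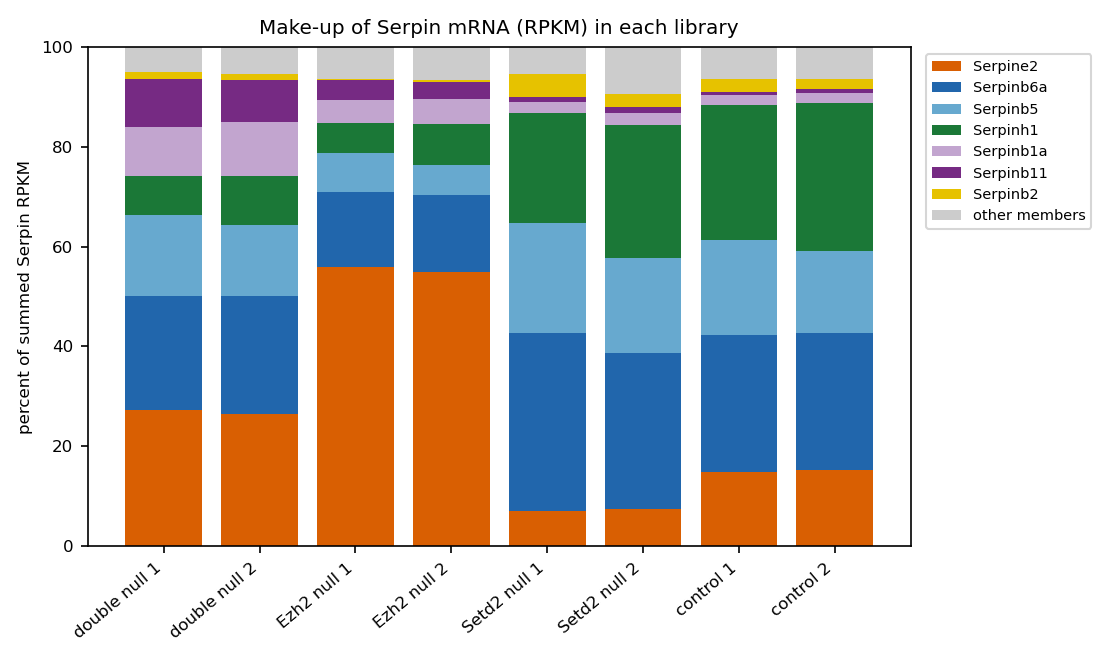
Share of summed Serpin RPKM taken by each of 7 members and by the remaining members, in percent (vertical axis), in the 8 libraries of the deletion genotypes (horizontal axis). Serpine2 averaged 55.4% in Ezh2 null, against 15.1% in control, and Serpinh1 7.13%, against 28.4%.

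Deletion of Ezh2 went with changed levels of most tested serpins, whether Setd2 was deleted or intact. In double null against Setd2 null, 15 of 17 tested members passed limma's test at an adjusted p under 0.05, 7 higher and 8 lower. In Ezh2 null against control, the same members, 15 of 17, passed in the same directions. Background was high: 55% of all tested genes passed in double null against Setd2 null (35.6% higher, 19.4% lower), and 56.6% in Ezh2 null against control (36.1% higher, 20.5% lower). The median log2 fold change was −0.46 for the members and 0.18 for all genes in double null against Setd2 null, and −0.09 and 0.18 in Ezh2 null against control. After quantile normalization the medians of all genes moved to 0.00 and 0.01, with 53.3% of genes passing in double null against Setd2 null (25.8% higher, 27.5% lower) and 55.9% in Ezh2 null against control (28% higher, 27.9% lower). Relative to that shift, 6 members passed as higher and 10 as lower in double null against Setd2 null, and 6 and 8 in Ezh2 null against control. The log2 fold changes (log2FC) of these 4 groups are differences of log2(RPKM + 1), a scale on which the changes of low genes come out too small. The members' medians were the same with members listed at 0 in a whole group set to 3 reads per library. In bulk samples, fewer cells of a type and less RNA per cell cannot be told apart.

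**Figure D2:**
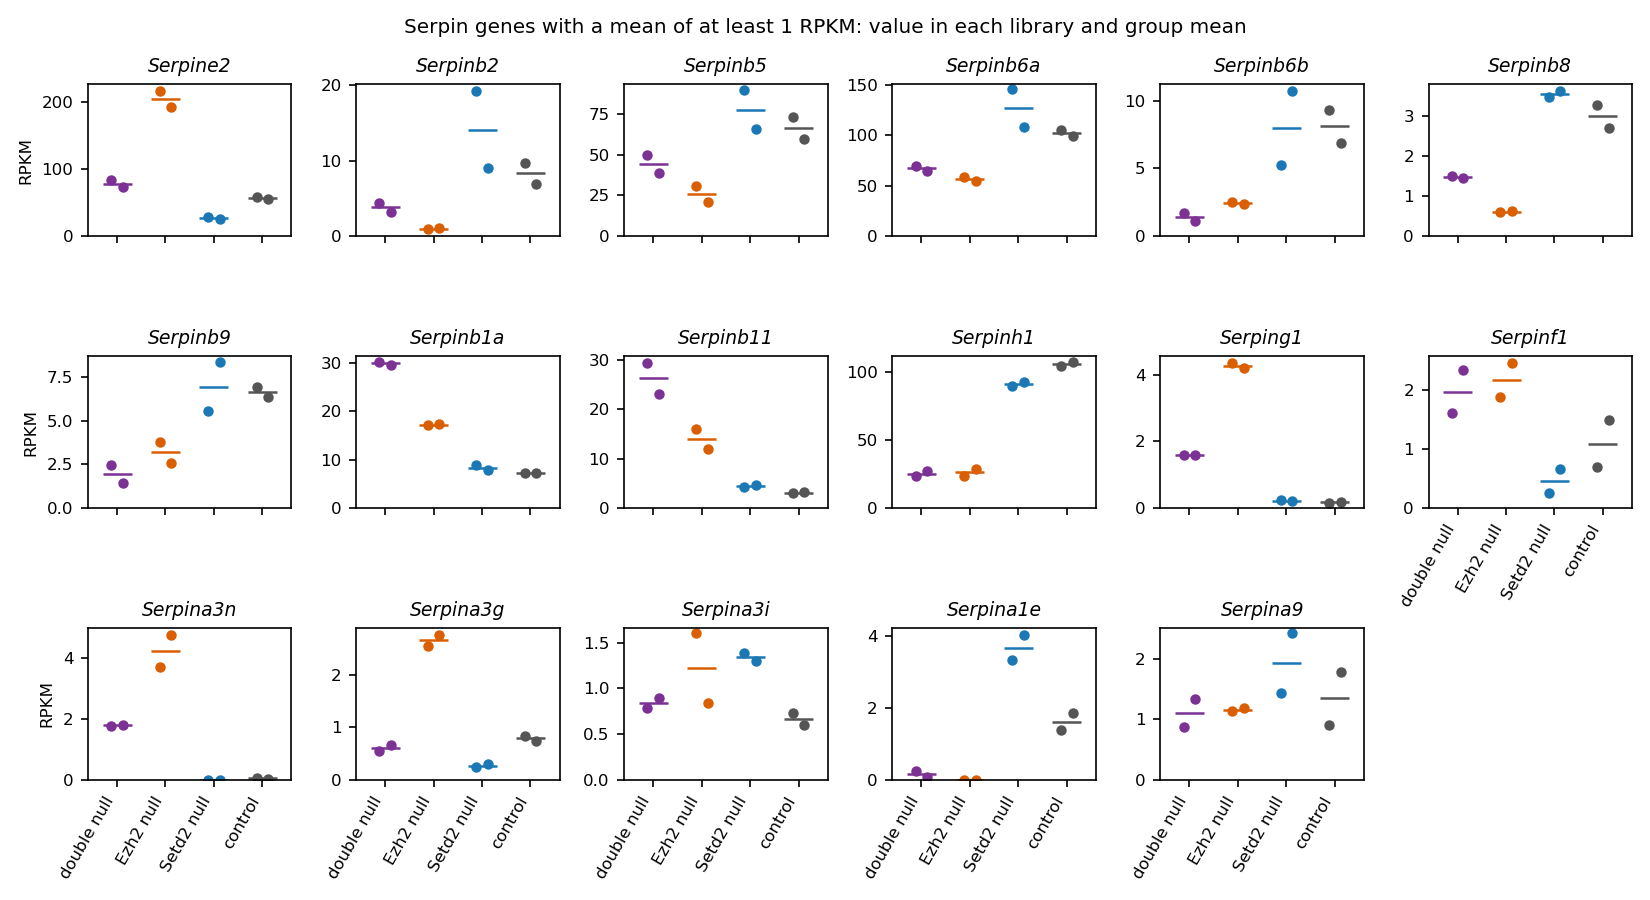
RPKM (vertical axis, from 0, its own scale in each panel) of the 17 tested members in each library of the 4 deletion groups (horizontal axis). Points are libraries and lines are group means (n = 2), with Serpine2 at 216 and 192 in Ezh2 null, against 57.4 and 54.9 in control.

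Serpine2, the secreted thrombin inhibitor named above, was higher with Ezh2 deleted. Serpine2, on chromosome 1, minus strand, from 79794317 to 79858665 in mm10, had 83.6 and 72.3 RPKM in double null, 216 and 192 in Ezh2 null, 28.3 and 25.4 in Setd2 null, and 57.4 and 54.9 in control. Its libraries with Ezh2 deleted were all above those with Ezh2 intact, and no group overlapped another. Serpine2 rose by a log2FC of 1.50 ± 0.13 SE in double null against Setd2 null (adjusted p = 1.49e-05 in limma). In Ezh2 null against control it rose by 1.84 ± 0.13 (adjusted p = 3.50e-06).

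Serpinb2, or PAI-2, a mostly intracellular inhibitor of urokinase, lies in the clade B cluster of chromosome 1 and had 4.33 and 3.22 RPKM in double null, 0.952 and 0.991 in Ezh2 null, 19.2 and 8.99 in Setd2 null, and 9.72 and 6.94 in control. All 4 libraries with Ezh2 deleted were below the other 4, and the Setd2 null libraries differed from each other more than those of any other group. Serpinb2 fell in double null relative to Setd2 null (log2FC −1.58 ± 0.31 SE, adjusted p = 0.00273 in limma) and in Ezh2 null against control (−2.23 ± 0.31, adjusted p = 0.000408). Serpine3 stayed at or below 0.217 RPKM in every library.

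The other intracellular serpins that fell with Ezh2 deletion were Serpinb5, Serpinb6a, Serpinb6b, Serpinb8 and Serpinb9. Serpinb5, or maspin, a noninhibitory serpin of epithelial cells, had 49.9 and 38.5 RPKM in double null, 30.7 and 21.1 in Ezh2 null, 89.7 and 65.7 in Setd2 null, and 73.3 and 59.4 in control. The libraries with and without Ezh2 did not overlap, although the libraries within each group differed widely. With Setd2 deleted, its fall (log2FC −0.80 ± 0.22 SE, adjusted p = 0.0127 in limma and between 0.000249 and 0.105 under other settings) was lost without double null 2 (0.0768) or Setd2 null 1 (0.105). In Ezh2 null against control it fell by 1.34 ± 0.22 on the log2 scale (adjusted p = 0.000696 in limma).

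Serpinb6a, an inhibitor of cathepsin G and of trypsin-like proteases, had 69.8 and 64.5 RPKM in double null, 58.1 and 54.3 in Ezh2 null, 146 and 109 in Setd2 null, and 105 and 99.1 in control. The libraries with Ezh2 deleted lay close together and below the others, and the widest gap was between the Setd2 null libraries. Serpinb6a fell by 0.90 ± 0.15 SE on the log2 scale in double null against Setd2 null (adjusted p = 0.000962 in limma) and by 0.85 ± 0.15 in Ezh2 null against control (adjusted p = 0.00124). Its paralog Serpinb6b was far lower, at 1.66 and 1.10 RPKM in double null, 2.48 and 2.40 in Ezh2 null, 5.21 and 10.7 in Setd2 null, and 9.34 and 6.90 in control. The 2 Setd2 null libraries spanned the control libraries, while both groups with Ezh2 deleted lay below them. It fell by 1.85 ± 0.27 SE in double null against Setd2 null (adjusted p = 0.000429 in limma) and by 1.40 ± 0.27 in Ezh2 null against control (adjusted p = 0.00210).

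Serpinb9, which inhibits the cytotoxic protease granzyme B, had 2.43 and 1.43 RPKM in double null, 3.79 and 2.56 in Ezh2 null, 5.57 and 8.35 in Setd2 null, and 6.92 and 6.36 in control. Both pairs of groups were apart by more than the spread within them. It fell by 1.44 ± 0.22 SE on the log2 scale in double null against Setd2 null (adjusted p = 0.000508 in limma) and by 0.89 ± 0.22 in Ezh2 null against control (adjusted p = 0.00747). Serpinb8, an inhibitor of the proprotein convertase furin, had 1.50 and 1.45 RPKM in double null, 0.608 and 0.612 in Ezh2 null, 3.48 and 3.65 in Setd2 null, and 3.29 and 2.71 in control. Ezh2 null was lowest and double null lay between it and the libraries with Ezh2 intact. The log2FC were −0.88 ± 0.12 SE in double null against Setd2 null and −1.31 ± 0.12 in Ezh2 null against control (adjusted p = 0.000242 and 1.84e-05 in limma). Serpinb6a, Serpinb6b and Serpinb9 belong to families of similar mouse copies, so their values are uncertain to the extent that the authors' counting divided shared reads.

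Of the clade B serpins with a mean of at least 1 RPKM, Serpinb1a and Serpinb11 rose with Ezh2 deletion. Serpinb1a, an inhibitor of neutrophil elastase, proteinase 3 and cathepsin G, had 30.3 and 29.7 RPKM in double null, 17.1 and 17.3 in Ezh2 null, 8.82 and 7.86 in Setd2 null, and 7.22 and 7.14 in control. Its groups did not overlap, and double null was the highest. It rose by 1.73 ± 0.11 SE on the log2 scale in double null against Setd2 null (adjusted p = 1.93e-06 in limma) and by 1.16 ± 0.11 in Ezh2 null against control (adjusted p = 2.55e-05). Serpinb11, a clade B serpin of epithelial tissues, had 29.4 and 23.1 RPKM in double null, 16.0 and 11.9 in Ezh2 null, 4.26 and 4.55 in Setd2 null, and 2.95 and 3.17 in control. The order of its groups was that of Serpinb1a, again without overlap. It rose by 2.32 ± 0.16 SE in double null against Setd2 null (adjusted p = 3.37e-06 in limma) and by 1.86 ± 0.16 in Ezh2 null against control (adjusted p = 1.30e-05).

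Serpinh1, or HSP47, a chaperone that binds procollagen in the endoplasmic reticulum, sits on chromosome 7, minus strand, from 99345375 to 99353239. It had 23.5 and 26.7 RPKM in double null, 23.3 and 28.8 in Ezh2 null, 89.8 and 92.4 in Setd2 null, and 104 and 107 in control. Both groups with Ezh2 deleted overlapped each other and lay far below both groups with Ezh2 intact. Serpinh1 fell by 1.82 ± 0.14 SE on the log2 scale in double null against Setd2 null and by 1.99 ± 0.14 in Ezh2 null against control (adjusted p = 5.00e-06 and 2.41e-06 in limma). The fibrillar collagen genes Col1a2 and Col3a1 moved the other way: Col1a2 averaged 2.92, 5.70, 0.0901 and 0.0821 RPKM, and Col3a1 2.98, 6.64, 0.0717 and 0.104 RPKM, in double null, Ezh2 null, Setd2 null and control.

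Tested serpins of clades A, F and G were low, and 4 of them rose with Ezh2 deletion. Serping1, the C1 inhibitor of complement and the contact system, had 1.59 and 1.59 RPKM in double null, 4.35 and 4.22 in Ezh2 null, 0.231 and 0.198 in Setd2 null, and 0.143 and 0.179 in control. It was highest in Ezh2 null and close to 0 wherever Ezh2 was intact. The log2FC were 1.09 ± 0.11 SE in double null against Setd2 null and 2.19 ± 0.11 in Ezh2 null against control (adjusted p = 3.48e-05 and 3.48e-07 in limma). Serpina3n, a mouse antichymotrypsin-like serpin that inhibits granzyme B and cathepsin G, had 1.75 and 1.80 RPKM in double null, 3.69 and 4.73 in Ezh2 null, 0 in both Setd2 null libraries, and 0.0628 and 0.0313 in control. These are 183 and 192 reads in double null, 431 and 472 in Ezh2 null, none in Setd2 null, and 4 and 2 in control. Serpina3n rose in Ezh2 null relative to control (log2FC 2.31 ± 0.13 SE, adjusted p = 6.16e-07 in limma) and passed in double null against Setd2 null (1.47 ± 0.13, adjusted p = 1.28e-05).

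Serpina3g, a mouse inhibitor of cathepsins inside cells, had 0.537 and 0.657 RPKM in double null, 2.55 and 2.76 in Ezh2 null, 0.233 and 0.302 in Setd2 null, and 0.829 and 0.742 in control. Ezh2 null stood above all other groups, and double null lay below control. It rose in Ezh2 null relative to control (log2FC 1.03 ± 0.12 SE, adjusted p = 6.44e-05 in limma). In double null against Setd2 null the log2FC was 0.33 ± 0.12 (adjusted p = 0.0351 in limma and between 0.0109 and 0.289 under other settings). That call was lost without any 1 of the double null, Setd2 null or control libraries, with adjusted p from 0.0509 without Setd2 null 2 to 0.206 without double null 2, and after quantile normalization its sign turned. Serpinf1, or PEDF, a noninhibitory secreted serpin that restrains vessel growth, had 1.60 and 2.35 RPKM in double null, 1.89 and 2.46 in Ezh2 null, 0.243 and 0.656 in Setd2 null, and 0.685 and 1.50 in control. Its groups did not overlap in either pair, though Ezh2 null and control came close. It rose in double null relative to Setd2 null (log2FC 1.04 ± 0.22 SE, adjusted p = 0.00321 in limma). With Setd2 intact, its log2FC was 0.63 ± 0.22 (adjusted p = 0.0352 in limma). It did not pass in limma with a pseudocount of 0.1 (adjusted p = 0.0729), with no filter on low values (0.086) or after quantile normalization (0.206). Nor did it pass with edgeR on recovered reads (adjusted p = 0.203), or in limma without Ezh2 null 2 or control 1.

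Serpina1e, one of the near-identical mouse copies of alpha-1 antitrypsin, went the other way. It had 0.234 and 0.0573 RPKM in double null, 3.33 and 4.02 in Setd2 null, and 1.37 and 1.87 in control, and was listed at 0 in both Ezh2 null libraries. The reads behind these values were 16 and 4 in double null, none in Ezh2 null, 151 and 197 in Setd2 null, and 57 and 78 in control. Serpina1e fell by 2.03 ± 0.14 SE on the log2 scale in double null against Setd2 null and by 1.38 ± 0.14 in Ezh2 null against control (adjusted p = 3.51e-06 and 4.11e-05 in limma). For members at 0 throughout a group the log2FC is a fitted value and no bound. Serpina9 and Serpina3i passed limma's test in no comparison of these groups. After quantile normalization both passed as lower in double null than in Setd2 null (adjusted p = 0.0171 and 0.00387 in limma, the lowest of the alternatives, which reached 0.494 and 0.259). Serpina9, known from germinal centre B cells in humans, ranged from 0.881 to 2.44 RPKM over the 8 libraries, and Serpina3i from 0.601 to 1.61 RPKM. Members of the Serpina1 and Serpina3 groups are near-identical copies, so reads could be divided between them.

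Markers of prostate epithelium and of other cells also changed, in both directions. Of the 8 epithelial markers, all tested, 1 rose and 3 fell in Ezh2 null against control. In double null against Setd2 null, 3 rose and 3 fell. The 10 stromal markers summed to 29.3 to 33.9 RPKM in double null, 33.0 to 34.4 in Ezh2 null, 8.16 to 13.5 in Setd2 null and 9.42 to 12.6 in control. Of the 5 stromal markers tested, 4 rose and 1, Postn, fell in both comparisons of Ezh2 deletion. Dcn averaged 22.9, 15.7, 1.07 and 1.18 RPKM and Postn 0.0291, 0.217, 8.13 and 7.50 RPKM in the same order of groups. Dcn was the highest of the 10 with Ezh2 deleted, and Postn with Ezh2 intact. The 8 seminal vesicle and urothelium markers summed to 81.6 to 93.3, 105 to 110, 29.8 to 36.0 and 27.7 to 29.1 RPKM in the same order of groups, with 5 of 6 higher and 1 lower in both comparisons. The 8 leukocyte markers summed to 13.8 to 15.02, 13.5 to 14.2, 33.1 to 39.6 and 21.9 to 24.6 RPKM. Cd68 averaged 11.1, 4.33, 36.3 and 23.2 RPKM and was the highest of the 8 except in Ezh2 null, where Lyz2 was. Of the 2 tested, Cd68 fell and Lyz2 rose in both comparisons of Ezh2 deletion. Adgre1, not tested, averaged 0.295 RPKM in double null and 1.04 in Ezh2 null, and was listed at 0 in Setd2 null and control. Lyz2 averaged 2.84 RPKM in double null and 7.94 in Ezh2 null, and was listed at 0 in Setd2 null and control. The 6 hepatocyte markers summed to 0.313 to 0.379, 1.58 to 2.31, 0.157 to 0.288 and 0.0278 to 0.123 RPKM. The 5 endothelial markers summed to 2.18 to 2.74, 1.97 to 3.18, 0.603 to 0.664 and 0.546 to 0.562 RPKM. Esam held most of these sums, at 2.36, 2.48, 0.469 and 0.477 RPKM on average. Cdh5, Kdr, Pecam1 and Tek averaged at most 0.106 RPKM in any group. The 4 platelet markers summed to 12.98 to 16.5, 7.17 to 7.68, 87.6 to 156 and 93.1 to 125 RPKM. Ppbp was the highest of them in each group, and it alone was tested and fell in both comparisons. Pf4, at 0.544, 1.53, 0.0258 and 0 RPKM, and Gp1bb, at 2.20, 0.862, 0 and 0.00788 RPKM, went the other way. Itga2b averaged 0.779, 0.788, 0.964 and 0.852 RPKM. The part of such cells in the serpin levels was not tested.

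The effect of Ezh2 deletion differed with Setd2 status in 2 of 17 members, against 2.59% of all tested genes (1.69% higher, 0.9% lower). Serping1 rose less with Setd2 deleted, by 1.09 ± 0.16 on the log2 scale (interaction of −1.09, adjusted p = 0.00591 in limma), and did not pass with edgeR on recovered reads (adjusted p = 0.111). Serpina3n also rose less with Setd2 deleted on the log2(RPKM + 1) scale (interaction −0.83 ± 0.18, adjusted p = 0.0473 in limma and between 0.0357 and 0.777 under other settings). With edgeR on recovered reads its interaction had the opposite sign (3.95, adjusted p = 0.391). For Serpina3n the call was lost without 7 of the 8 libraries in turn, at adjusted p from 0.0969 to 0.183, and rests on values near 0 in Setd2 null and control. For the other 15 members a difference between the effects did not pass, which does not show that the effects were equal. The median interaction was −0.34 for the members and −0.01 for all genes.

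**Figure D3:**
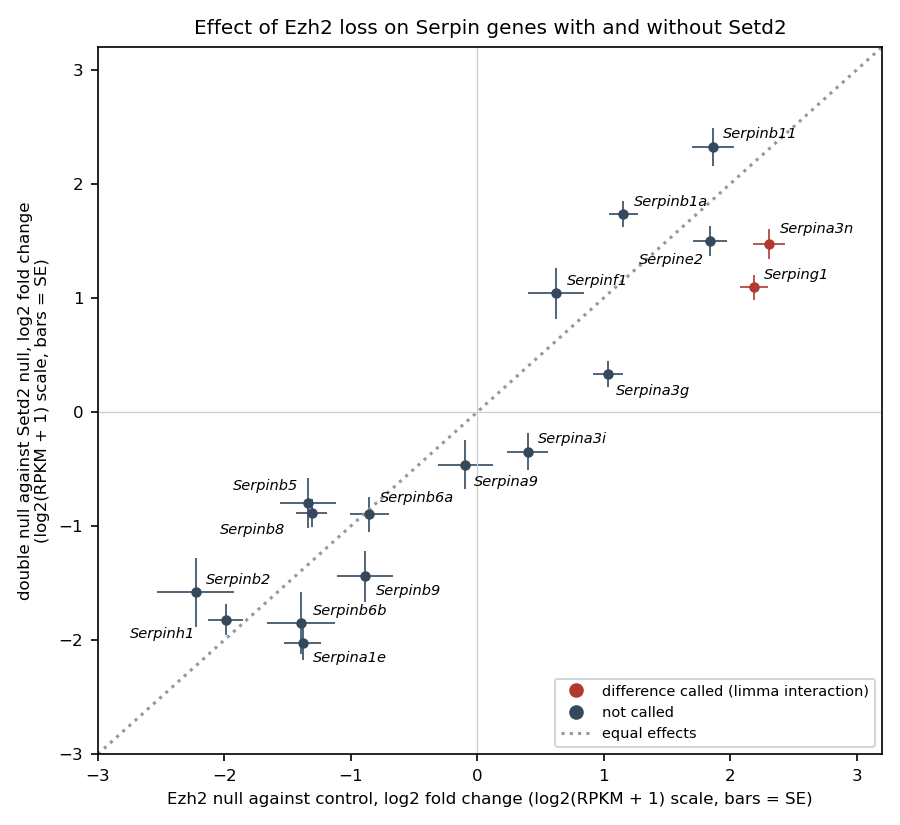
Log2 fold change of Ezh2 deletion with Setd2 deleted (double null against Setd2 null, vertical axis) and with Setd2 intact (Ezh2 null against control, horizontal axis) for the 17 tested members, with SE bars on both axes and a dotted line of equal effects. Serping1 (1.09 and 2.19) and Serpina3n (1.47 and 2.31), in red, passed limma's interaction test.

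Between the groups without Ezh2, deletion of Setd2 went with changes in 8 of 17 members (4 higher, 4 lower), against 6.49% of all tested genes (3.79% higher, 2.7% lower). In double null against Ezh2 null, Serpine2 fell (log2FC −1.38 ± 0.13 SE, adjusted p = 0.000284 in limma). Serpinb1a rose (0.77 ± 0.11, adjusted p = 0.00312 in limma). The low members Serping1 (−1.03 ± 0.11), Serpina3g (−1.19 ± 0.12) and Serpina3n (−0.90 ± 0.13) fell, with adjusted p in limma of 0.000516, 0.000285 and 0.00274, and edgeR on recovered reads did not call Serpina3n (adjusted p = 0.0716). Serpinb5 was higher in each double null library than in each Ezh2 null library but did not pass (0.76 ± 0.22, adjusted p = 0.0864 in limma and between 0.00279 and 0.396 under other settings). Deviations of same-numbered libraries correlated at 0.93 between these 2 groups, though the labels tie library numbers to no shared batch. With library number as a block in the fit, Serpinb5 passed as higher in double null (adjusted p = 0.00279 in limma). Calls for 3 further members that rose were not stable to the loss of 1 library. Serpinb11 (0.87 ± 0.16, adjusted p = 0.0122 in limma and between 0.00676 and 0.106 under other settings) did not pass without double null 1 (0.0791) or Ezh2 null 2 (0.0739). Serpinb8 (0.62 ± 0.12, adjusted p = 0.0153 in limma and between 0.00222 and 0.0943 under other settings) did not pass without any 1 of the 4 libraries compared (0.0785 to 0.0943). Serpinb2 (1.27 ± 0.31, adjusted p = 0.0480 in limma and between 0.00803 and 0.313 under other settings) did not pass without any 1 of the 4 (0.191 to 0.313) or of the control libraries (0.0681 and 0.0684).

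With Ezh2 intact, 2 of 17 members passed in Setd2 null against control, against 1.07% of all tested genes (0.379% higher, 0.688% lower). Serpine2 fell (log2FC −1.04 ± 0.13 SE, adjusted p = 0.00937 in limma and between 0.00424 and 0.132 under other settings), a call lost without control 1 (0.132) or control 2 (0.105). Serpina1e rose (0.84 ± 0.14, adjusted p = 0.0336 in limma and between 0.0269 and 0.383 under other settings), a call lost without Setd2 null 1 (0.0926), control 1 (0.263) or control 2 (0.104). Serpina1e also did not pass in limma with a pseudocount of 0.1 (adjusted p = 0.249), with no filter on low values (0.0809) or with only the 2 groups compared (0.129). Nor did it pass with edgeR on recovered reads (adjusted p = 0.383). With only the 2 groups compared, Serpine2 did not pass either (adjusted p = 0.0647 in limma). The medians were 0.19 for the members and −0.02 for all genes.

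Members were also compared as whole reads, recovered from the deposited values, which let some below 1 RPKM be tested. With edgeR's quasi-likelihood test on those reads, 25 members were tested. Of these, 18 passed in each comparison of Ezh2 deletion (10 higher, 8 lower). Of all genes, 49.5% passed in double null against Setd2 null and 51.2% in Ezh2 null against control. The 25 were the 17 members tested in limma and Serpina1f, Serpina3f, Serpinb1b, Serpinb7, Serpinb9b, Serpinb10, Serpinc1 and Serpine3. Of the added members, Serpinb1b, Serpinc1 and Serpine3 passed in neither comparison. Serpinb10, a clade B serpin of blood cells, had 161 and 174 reads in double null, 145 and 114 in Ezh2 null, 4 and 0 in Setd2 null, and 1 and 0 in control. It was near 0 wherever Ezh2 was intact, and edgeR called it higher in both comparisons (adjusted p = 0.000283 and 0.000240). Serpina1f had 15 and 8 reads in double null, 119 and 48 in Ezh2 null, with none in Setd2 null or control, and was called in both comparisons (edgeR adjusted p = 0.0123 and 0.000970). Serpinb10 and Serpina1f passed the filter on low counts through the groups with Ezh2 deleted, where they had their reads, so these calls follow in part from the filter. Serpina3f and Serpinb9b passed in Ezh2 null against control (edgeR adjusted p = 0.0191 and 0.0404), on 40 and 20 reads against 1 and 0, and on 15 and 23 reads against 0 and 1. Serpinb7 passed in double null against Setd2 null (edgeR adjusted p = 0.0497), on 23 and 14 reads against 1 and 1. Serpina3f and Serpinb9b also passed the filter through the groups with Ezh2 deleted, and Serpinb7 through double null. These calls too follow in part from the filter.

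Neighbouring clade B genes differed in direction. The cluster on chromosome 1 from 106861180 to 107611795 holds 12 members over 751 kb, of which 4 were tested. From one end to the other, Serpinb5 was lower, Serpinb11 higher, Serpinb2 lower and Serpinb8 lower in Ezh2 null than in control. Serpinb10, between Serpinb2 and Serpinb8, had more reads in Ezh2 null, but its call follows in part from the filter on low counts. In the cluster on chromosome 13 from 32842092 to 34002794, with 15 members over 1161 kb, Serpinb1a was higher and Serpinb6b, Serpinb9 and Serpinb6a were lower. The clade A cluster on chromosome 12 from 103616675 to 104414334 holds 23 members over 798 kb. From one end to the other, Serpina1e was lower, and Serpina3g and Serpina3n were higher. Serpina1f, before Serpina1e, had more reads in Ezh2 null, but its call too follows in part from the filter.

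**Figure D4:**
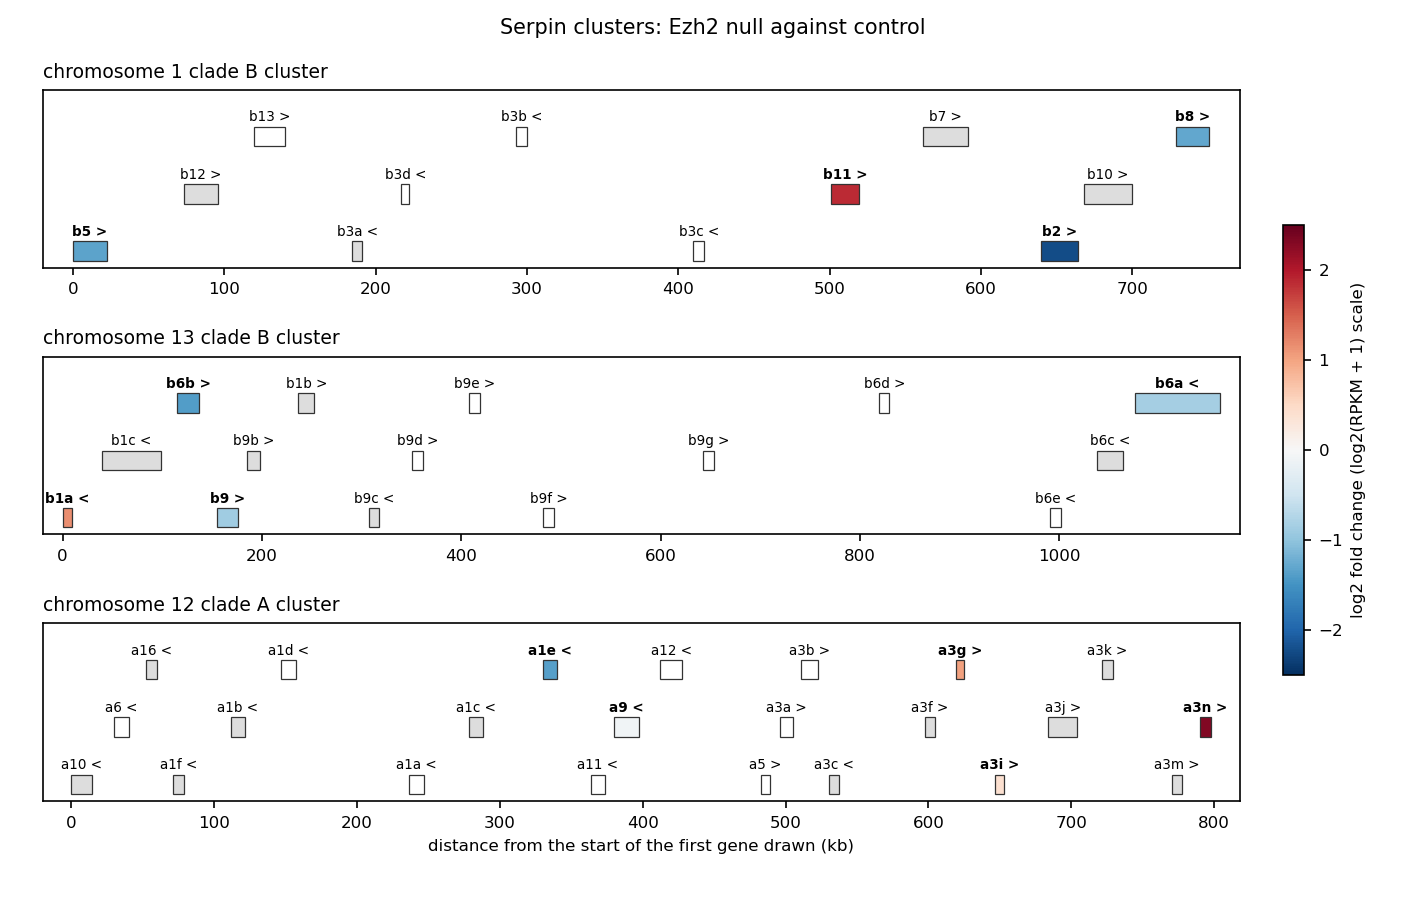
Maps of the 3 Serpin clusters, in kb from the start of the first gene drawn (horizontal axis), with genes at 3 heights for legibility and strand shown by > or <. Colour is the log2FC in Ezh2 null against control (red higher, blue lower), with grey for members above 0 that were not tested and white for members listed at 0 in all 8 libraries; Serpinb11 (1.86) and Serpinb2 (−2.23) lie in 1 cluster with opposite signs.

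The promoters richest in CpG belonged to a member that rose and to a member that fell with Ezh2 deletion. RefSeq promoter sequences of GRCm38.p6, running from 250 bases before the start of transcription to 50 after it, were at hand for 53 members and lay within 1000 bases of the deposited gene start for 47. Of these 47, the median held 3 CpG dinucleotides, against 7 over all 32851 RefSeq promoters of 300 bases, and 2 reached the upper quartile of 20. These 2 were Serpine2, which rose with Ezh2 deletion, with 41, and Serpinb6a, which fell, with 25. The sequences below set that pair beside maspin (Serpinb5, 7 CpG, lower) and Serpinb11 (0 CpG, higher), which lie in 1 cluster; capitals mark CpG. They are chr1:79858616-79858915 on the minus strand, chr13:34002745-34003044 on the minus strand, chr1:106860925-106861224 on the plus strand and chr1:107362064-107362363 on the plus strand.
Serpine2: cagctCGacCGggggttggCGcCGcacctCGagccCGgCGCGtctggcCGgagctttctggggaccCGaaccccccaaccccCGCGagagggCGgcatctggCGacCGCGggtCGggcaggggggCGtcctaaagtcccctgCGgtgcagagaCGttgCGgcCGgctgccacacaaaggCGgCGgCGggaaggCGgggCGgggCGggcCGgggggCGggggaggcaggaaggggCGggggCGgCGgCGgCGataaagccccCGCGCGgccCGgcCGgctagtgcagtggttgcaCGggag
Serpinb6a: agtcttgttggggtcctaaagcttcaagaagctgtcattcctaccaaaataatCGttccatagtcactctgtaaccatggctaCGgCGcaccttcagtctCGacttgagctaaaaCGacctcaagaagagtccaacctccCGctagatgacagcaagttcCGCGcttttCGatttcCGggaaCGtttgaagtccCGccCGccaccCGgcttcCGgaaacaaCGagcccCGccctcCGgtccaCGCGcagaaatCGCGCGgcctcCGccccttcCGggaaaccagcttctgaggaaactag
Serpinb5: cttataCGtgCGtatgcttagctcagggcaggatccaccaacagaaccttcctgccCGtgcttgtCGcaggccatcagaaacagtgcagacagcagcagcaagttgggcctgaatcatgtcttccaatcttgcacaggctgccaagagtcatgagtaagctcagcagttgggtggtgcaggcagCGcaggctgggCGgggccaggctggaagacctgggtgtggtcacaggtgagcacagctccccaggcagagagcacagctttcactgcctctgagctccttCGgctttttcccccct
Serpinb11: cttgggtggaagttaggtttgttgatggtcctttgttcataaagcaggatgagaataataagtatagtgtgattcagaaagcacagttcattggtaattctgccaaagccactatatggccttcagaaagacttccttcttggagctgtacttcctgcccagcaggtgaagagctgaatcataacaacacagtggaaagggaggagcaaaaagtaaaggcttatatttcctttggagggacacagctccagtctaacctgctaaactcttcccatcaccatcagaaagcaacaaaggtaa

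The motif TGAGTCA, the consensus of the AP-1 factors, was searched on both strands and was in 6 of the 47 promoters and in 5.2% of all promoters. The 6 were Serpina1a, Serpina1b, Serpina1c, Serpina1d, Serpinb7 and Serpinb8. The Serpina1 genes are near-identical copies, so the 6 are not independent, and only Serpinb8 was tested in limma. The Serpinb8 promoter, chr1:107589756-107590055 on the plus strand, held the motif at 2 places, in capitals. These begin 23 bases before and 14 bases after the start site.
Serpinb8: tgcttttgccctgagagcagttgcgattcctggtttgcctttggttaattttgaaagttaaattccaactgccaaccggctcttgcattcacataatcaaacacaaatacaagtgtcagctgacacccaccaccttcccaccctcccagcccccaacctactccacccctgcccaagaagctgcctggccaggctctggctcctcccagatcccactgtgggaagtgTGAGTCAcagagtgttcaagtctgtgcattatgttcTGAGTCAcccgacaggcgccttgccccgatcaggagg
TATAAA, searched likewise, was in 13 of the 47 and in 13.62% of all promoters. The 13 include the copies Serpinb3a, Serpinb3b, Serpinb3c and Serpinb3d and several of the Serpina3 group, so they are not independent. None of the 13 was tested in limma. These matches are descriptions of the sequence windows.

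Protease genes, among them targets of serpins, and related lists were set beside all tested genes. Of all tested genes, 55% passed in double null against Setd2 null and 56.6% in Ezh2 null against control. Of 9 plasminogen activation genes, 6 were tested, and 0 rose and 5 fell in Ezh2 null against control, while 0 rose and 3 fell in double null against Setd2 null. Plau, which encodes urokinase, averaged 16.3 RPKM in double null, 14.6 in Ezh2 null, 267 in Setd2 null and 224 in control (log2FC −3.94 and −3.86, adjusted p = 3.75e-08 and 3.88e-08 in limma). Its receptor Plaur fell in both comparisons (log2FC −1.07 and −0.44), and plasminogen itself, Plg, was listed at 0 in all 8 libraries. Of 12 coagulation genes, 4 were tested, with 1 higher and 3 lower in Ezh2 null against control and 1 higher and 2 lower in double null against Setd2 null. Tissue factor, F3, averaged 68.8, 35.4, 315 and 237 RPKM in double null, Ezh2 null, Setd2 null and control.

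Of 12 membrane and secreted serine proteases, 11 were tested, with 5 higher and 3 lower in Ezh2 null against control and 3 higher and 4 lower in double null against Setd2 null. Tmprss2 averaged 113, 99.5, 26.5 and 27.5 RPKM and Tmprss4 51.3, 39.3, 4.96 and 3.03 RPKM in double null, Ezh2 null, Setd2 null and control, while Prss22 averaged 19.6, 15.1, 93.0 and 110 RPKM. Of 15 cathepsins, granule proteases and caspase 1, some of which clade B serpins target, 6 were tested. In Ezh2 null against control 1 was higher and 3 were lower, and in double null against Setd2 null 0 were higher and 5 lower. Ctsl averaged 38.8, 39.0, 163 and 134 RPKM. The granule proteases Ctsg, Elane, Gzma and Gzmb were listed at 0 in all 8 libraries. Prtn3, which encodes proteinase 3, averaged 0.0826 RPKM in double null and 0.173 in Ezh2 null, and 0 in Setd2 null and control. Gzmc averaged 0.148 RPKM in Ezh2 null and 0 in the other groups. Serpinb1a, Serpinb6a and Serpinb9, which inhibit neutrophil elastase, cathepsin G or granzyme B, were present. Of 16 other protease inhibitors in the table, 10 were tested, with 5 higher and 2 lower in each comparison. Of 7 genes listed for the receptors that clear serpin and protease complexes, 6 were tested, with 4 higher and 1 lower in each. Lrpap1, among those higher in each, encodes a receptor-associated protein and not a receptor. The one that fell was Lrp1, at 27.2, 16.5, 52.1 and 56.8 RPKM.

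The K735R comparison asks how the Ezh2 form differs from wild-type Ezh2 in organoids. With edgeR's quasi-likelihood test, 0 of 22 tested members passed at an adjusted p under 0.05, against 0.00757% of all genes, and 4 members had an unadjusted p under 0.05. DESeq2 called 2 members, Serpinb2 and Serpinb5, both higher, against 2% of all genes (adjusted p = 0.00456 and 0.000764). Serpinb2 had 218 and 172 CPM (counts scaled by TMM-adjusted library size and not by gene length, so not comparable between genes) with K735R, against 43.8 and 98.2 with wild-type Ezh2 (log2FC 1.45, edgeR adjusted p = 0.443). Serpinb5 had 213 and 187 CPM with K735R, against 122 and 129 with wild-type Ezh2 (0.67, edgeR adjusted p = 0.243). Neither pair of groups overlapped, which with 2 libraries a group is not a test of a difference. In the deletion series these same genes were lower in Ezh2 null than in control, in mice of another age.

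**Figure D5:**
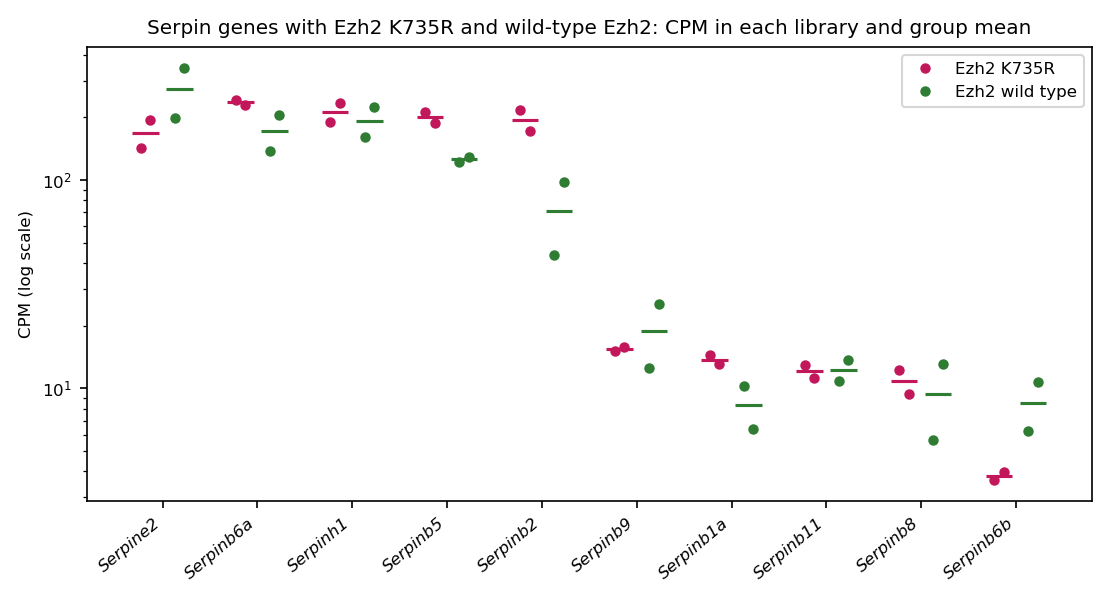
CPM (vertical axis, log scale) of the 10 members with a group mean of at least 5 CPM in the K735R comparison, with K735R left of wild-type Ezh2 for each gene. Points are libraries and lines are group means (n = 2); Serpinb2 had 218 and 172 CPM with K735R, against 43.8 and 98.2 with wild-type Ezh2.

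Serpinb6a, Serpinh1 and Serpine2 also held many of the serpin reads. Serpinb6a had 242 and 230 CPM with K735R, against 138 and 205 with wild-type Ezh2, and Serpinh1 had 191 and 236, against 161 and 224. Serpine2 had 143 and 194 CPM with K735R, against 199 and 347 with wild-type Ezh2. Serpinh1 overlapped between the groups, while Serpinb6a and Serpine2 did not overlap but differed by less than the test could call. Serpinb6b had 3.62 and 3.98 CPM with K735R, against 6.27 and 10.7 with wild-type Ezh2 (−1.16, edgeR adjusted p = 0.443). The wild-type libraries differed from each other by up to 2.33 times among the 10 members with a group mean of at least 5 CPM. Serpinb1a had 14.4 and 13.1 CPM with K735R and 10.3 and 6.38 with wild-type Ezh2, Serpinb9 15.1 and 15.9 against 12.5 and 25.3, Serpinb8 12.3 and 9.46 against 5.64 and 13.1, and Serpinb11 12.99 and 11.2 against 10.9 and 13.7. The other 12 tested members were under 5 CPM in both groups.

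Results of the K735R comparison turned on which wild-type library was used. Without wild type 1, edgeR called 5 members, against 4.77% of all genes: Serpinb1a, Serpinb2 and Serpinb5 higher, and Serpinb6b and Serpinb9 lower. Without wild type 2 it called 3, against 11.8% of all genes, and Serpinb2, Serpinb5 and Serpinb6a were higher. In both cases the lone wild-type library was assumed to vary as the K735R libraries do. Without either K735R library, 0 members passed.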

How the data were processed

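Total RNA of mouse prostate organoids was sequenced as paired reads, per the labels' protocols, and 12 RNA libraries in 6 groups of 2 were used. The H3K27me3 and input samples were not analysed here. The submitters' processing notes name mm10, Bowtie and RSEM (with BWA and SICER for the series). Versions, strandedness and how shared reads were divided: not given in the sources used here, so near-identical copies are uncertain. The authors deposited RPKM values for the 4 deletion groups and whole-number counts for the K735R comparison. Of 13748 genes above 0 in all 8 libraries in the deposited RPKM values, 99.97% were whole reads within 0.01, which gave the reads and depths.

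Values of log2(RPKM + 1) for 11338 genes averaging 1 RPKM or more entered 1 fit of the 4 groups in limma 3.58.1 (trended, robust). Counts were tested with edgeR 4.0.16 (TMM, its filter on low counts, robust quasi-likelihood, 13203 genes). All tests were two-sided, adjusted by the Benjamini-Hochberg method over all genes tested and called at 0.05. Errors are SE of the fit. Scripts were tested on simulated data. DESeq2 1.42.0, edgeR on recovered reads, limma on log2 CPM, no TMM factors, pseudocount 0.1, other filters, quantile normalization, the 2 groups compared alone, the replicate block and leaving out each library were the alternatives. Members averaging 1 RPKM or more, or kept in the counts, are accounted for, and those called or reaching 5 RPKM are given per library. The other genes are up to 4 per list with the smallest p in Ezh2 null against control, plus members of a list singled out after their values were seen. The members, lists and tests were chosen with earlier results of these data known. A further allele that all groups carry, 1 member and 1 epithelial marker are not reported here; both genes stayed in the fits. R was 4.3.3.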

Additional observations from a re-analysis of the deposited data

Results flagged for a closer look

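The effect of Ezh2 deletion on 2 serpins differed between organoids with Setd2 deleted and organoids with Setd2 intact, by limma's interaction test. For Serping1 the difference was −1.09, and it did not pass with edgeR on recovered reads (adjusted p = 0.111). For Serpina3n it was −0.834 and passed under 2 of 13 alternatives, and with edgeR on recovered reads it had the opposite sign (3.95, adjusted p = 0.391).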

How the results depend on the processing

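Of 42 called pairs of a member and a comparison, 31 passed under every alternative run that tested the member and 11 were lost under at least 1. Low members were not tested in every run, for example with the filter at 5 RPKM, and such runs do not count as losses. Members called with each library left out numbered 13 to 15 in double null against Setd2 null, 14 to 15 in Ezh2 null against control, 4 to 8 in double null against Ezh2 null, 0 to 2 in Setd2 null against control, 1 to 2 for the interaction and 0 to 5 with K735R. A filter at a mean of 5 RPKM left 7 members tested and called 7, 7, 4, 1 and 0 in the first 5 comparisons in that order. In Setd2 null against control 1 member passed with a pseudocount of 0.1, with no filter and with edgeR on recovered reads, and 0 with only the 2 groups compared. For the interaction edgeR on recovered reads called 0 and the pseudocount of 0.1 left 1, and DESeq2 called 2 with K735R. Among results called in at least 1 setting, signs turned for Serpina3g in double null against Setd2 null after quantile normalization (−0.20), for Serpina3n in the interaction with edgeR on recovered reads (3.95) and for Serpinb9 with K735R without wild type 2 (0.32, against −0.71 without wild type 1). Signs of results called in no setting turned as well, such as the interaction of Serpina1e (−0.65, and 4.81 with edgeR on recovered reads). The cause was not tested.

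All genes called numbered 736 in double null against Ezh2 null, 465 with the filter at 5 RPKM, 399 with only the 2 groups and 342 to 457 without a library compared. In Setd2 null against control they numbered 121, against 67 with no filter, 62 with the filter at 5 RPKM, 56 after quantile normalization, 15 with only the 2 groups, 231 with the replicate block and 24 to 43 without Setd2 null 1 or a control library. For the interaction they numbered 294, against 146 with the filter at 5 RPKM, 469 with the block and 143 to 174 without double null 2 or a control library. With K735R they numbered 1, against 285 with DESeq2, 2 with limma on log2 CPM, 4 with the block and 0 to 1595 without a library. The labels tie library numbers to no shared batch. Deviations of same-numbered libraries correlated across genes at 0.93 between double null and Ezh2 null, at 0.11 to 0.36 between the other deletion groups and at 0.10 between K735R and wild type, and 2 numbers a group are too few to show a pairing. With the replicate block 16, 15, 9, 2, 3 and 0 members passed in the 6 comparisons in the order above, with Serpinb5 added as higher in double null against Ezh2 null (adjusted p = 0.00279). With 2 libraries a group, and few reads behind the members under 1 RPKM, small differences could not be detected.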

Other observations

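Agt, angiotensinogen, is described as a clade A serpin in the deposited table but does not carry a Serpin symbol and was not counted among the members. It was at 0.449 and 0.161 RPKM in double null and at 0.0685 and 0.114 RPKM in Ezh2 null. Agt was listed at 0 in both Setd2 null and both control libraries.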
